A study of Rattus norvegicus with 10 samples.

Results

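Decorin (Dcn), fibromodulin (Fmod), versican (Vcan) and peptidase inhibitor 16 (Pi16) were examined in rat lung with and without capillary morphogenesis gene 2. They are 4 of 1319 rows in the authors' deposited table, picked by symbol with earlier results of these data known. Dcn, Vcan and Pi16 had lower means and Fmod a higher mean in the knockout. The samples were lungs of 8-week-old Sprague Dawley rats, 5 libraries from wild-type (WT) and 5 from Cmg2-KO animals. The labels do not give the type of deletion, its breeding, or whether each library came from a separate animal, so the errors below are the spread among these libraries, which may be technical. Expression was measured by RNA sequencing of whole lung, and each value is a scaled count, the read count of a gene divided by a size factor of its library. The table holds genes with an unadjusted p-value under 0.05 in the authors' own comparison of the genotypes. They make up 6.63% of the 19894 genes that comparison adjusted over, and are called listed genes here. All 4 genes were thus chosen on the difference between the genotypes. Their levels and fold changes in that contrast are given as a description, with no test. The targeted gene was not analysed here, so the labels have no check from it. The lung genes Scgb1a1, a club cell product, and Sftpb, a surfactant protein of alveolar epithelium, were abundant in every library, with lowest values of 84205 and 42133 scaled counts.

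Proteoglycans are core proteins that carry sulfated sugar chains and fill the space between collagen and elastin fibres. Decorin and fibromodulin are small leucine-rich proteoglycans that bind the surface of collagen fibrils and set their assembly, and decorin also binds the growth factor TGF-beta. Versican is a large chondroitin sulfate proteoglycan that binds hyaluronan in loose matrix. Pi16 encodes a CAP-domain protein and is not a proteoglycan. It marks fibroblasts of the adventitia, the connective tissue cuff around large vessels and airways. CMG2 is itself a receptor for matrix proteins. In whole tissue, fewer cells of a type and less RNA per cell cannot be told apart.

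The table places Dcn on chromosome 7 (38742051 to 38782323, plus strand), Fmod on chromosome 13 (50873605 to 50885563, plus strand), Vcan on chromosome 2 (18490102 to 18565842, minus strand) and Pi16 on chromosome 20 (6923489 to 6932786, plus strand), on a build not given in the sources used here. In the order of RefSeq's GRCr8 annotation, the next genes after Dcn are the related proteoglycan genes Lum, Kera and Epyc. Fmod lies beside Prelp and Optc, and Vcan beside Hapln1, which encodes a protein that links versican to hyaluronan. None of these 6 neighbours was a listed gene, where 6.63% of all genes were.

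The 250 bases before the transcription start of Fmod, the gene with the higher mean in Cmg2-KO, and of Vcan and Pi16, with the lower mean, are shown so that the upstream sequences of genes moving in opposite directions can be read side by side. They are RefSeq sequences of GRCr8, matched by symbol for 3 of the 4 genes (Dcn is the other), with the farthest upstream start taken for Vcan, and run 5′ to 3′ on the strand of the gene. Fmod is at chr13:48045317-48045566 (plus strand), Vcan at chr2:22595956-22596205 (minus strand) and Pi16 at chr20:7377703-7377952 (plus strand). Capitals mark matches on either strand to CCAAT, to the GC box GGGCGG or to CAGAC, the core bound by SMAD proteins.
Fmod: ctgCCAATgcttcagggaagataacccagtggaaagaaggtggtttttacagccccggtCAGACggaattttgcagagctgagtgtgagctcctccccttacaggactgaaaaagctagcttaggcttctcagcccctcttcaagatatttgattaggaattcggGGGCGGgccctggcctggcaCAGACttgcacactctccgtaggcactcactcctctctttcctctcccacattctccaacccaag
Vcan: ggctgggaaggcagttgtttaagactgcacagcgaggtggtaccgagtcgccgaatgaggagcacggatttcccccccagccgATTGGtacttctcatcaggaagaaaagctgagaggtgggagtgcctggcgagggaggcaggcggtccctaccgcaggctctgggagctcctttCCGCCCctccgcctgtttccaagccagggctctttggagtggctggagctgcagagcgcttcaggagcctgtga
Pi16: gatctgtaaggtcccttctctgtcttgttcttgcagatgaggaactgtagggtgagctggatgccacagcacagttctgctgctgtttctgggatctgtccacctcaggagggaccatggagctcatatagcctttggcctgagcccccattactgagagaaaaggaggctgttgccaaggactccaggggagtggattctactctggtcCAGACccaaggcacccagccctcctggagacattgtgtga
The Fmod window held CCAAT along with GGGCGG, and 2 copies of CAGAC, the Vcan window held CCAAT and GGGCGG in reverse orientation, and the Pi16 window held a CAGAC starting 40 bases before the start. These motifs are common. Among 33469 RefSeq windows of this length, 34% held CCAAT, 30.5% GGGCGG and 42.9% CAGAC. Neither TATAAA, held by 12.9% of windows, nor the AP-1 site TGANTCA, held by 6.34%, was found in any of the 3, and the matches do not show that a factor binds.

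With all 10 libraries, decorin had the widest difference of the 4, an order that did not hold in every alternative. Dcn stood at 2735 scaled counts in WT 1, 1244 in WT 2, 1757 in WT 3, 3658 in WT 4 and 1584 in WT 5. In Cmg2-KO it stood at 1057, 1021, 971, 1678 and 1067 in libraries 1 to 5. WT 1 and WT 4 were far above the other WT libraries, and Cmg2-KO 4 was above WT 2 and WT 5, so the genotypes overlapped. Means were 2196 ± 988 and 1159 ± 293 (SD, n = 5 each), a log2 fold change (Cmg2-KO over WT, on log2(scaled count + 1)) of -0.84 ± 0.28 (SE; limma, 95% confidence interval -1.45 to -0.23). Without WT 1 and WT 4 it was -0.42, against -0.46 for Vcan and 0.48 for Fmod, and on whole reads of the 9 libraries other than WT 4 it was -0.66 against -0.75 for Vcan (edgeR).

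Fibromodulin, from the same family, went the other way. Fmod stood at 1524, 1849, 2061, 2249 and 1841 scaled counts in WT 1 to WT 5. It stood at 1965, 2789, 2420, 3674 and 2760 in Cmg2-KO 1 to 5. All Cmg2-KO libraries except Cmg2-KO 1 were above every WT library, and that library lay inside the WT range. Means were 1905 ± 272 and 2722 ± 628 (SD, n = 5 each), a log2 fold change of 0.50 ± 0.16 (SE; limma, 95% confidence interval 0.15 to 0.84).

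Versican was the least abundant. Vcan stood at 493, 558, 283, 274 and 186 scaled counts in WT 1 to WT 5, and at 261, 228, 218, 246 and 179 in Cmg2-KO 1 to 5. WT 1 and WT 2 were high, WT 3 and WT 4 lay just above the highest Cmg2-KO library, and WT 5 lay within the Cmg2-KO range. Means were 359 ± 158 and 226 ± 31.2 (SD, n = 5 each). The log2 fold change was -0.56 ± 0.27 (SE; limma), and its 95% confidence interval of -1.16 to 0.04 included 0. Without WT 2 it was -0.37.

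Pi16 had the same order of WT libraries as decorin, but not of Cmg2-KO libraries. It stood at 1480, 714, 991, 1599 and 772 scaled counts in WT 1 to WT 5, and at 683, 488, 733, 991 and 673 in Cmg2-KO 1 to 5. WT 1 and WT 4 were again the highest WT libraries, Cmg2-KO 4 was above WT 2 and WT 5, and Cmg2-KO 3 above WT 2. Means were 1111 ± 407 and 713 ± 181 (SD, n = 5 each), a log2 fold change of -0.60 ± 0.25 (SE; limma, 95% confidence interval -1.16 to -0.04).

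**Figure D1:**
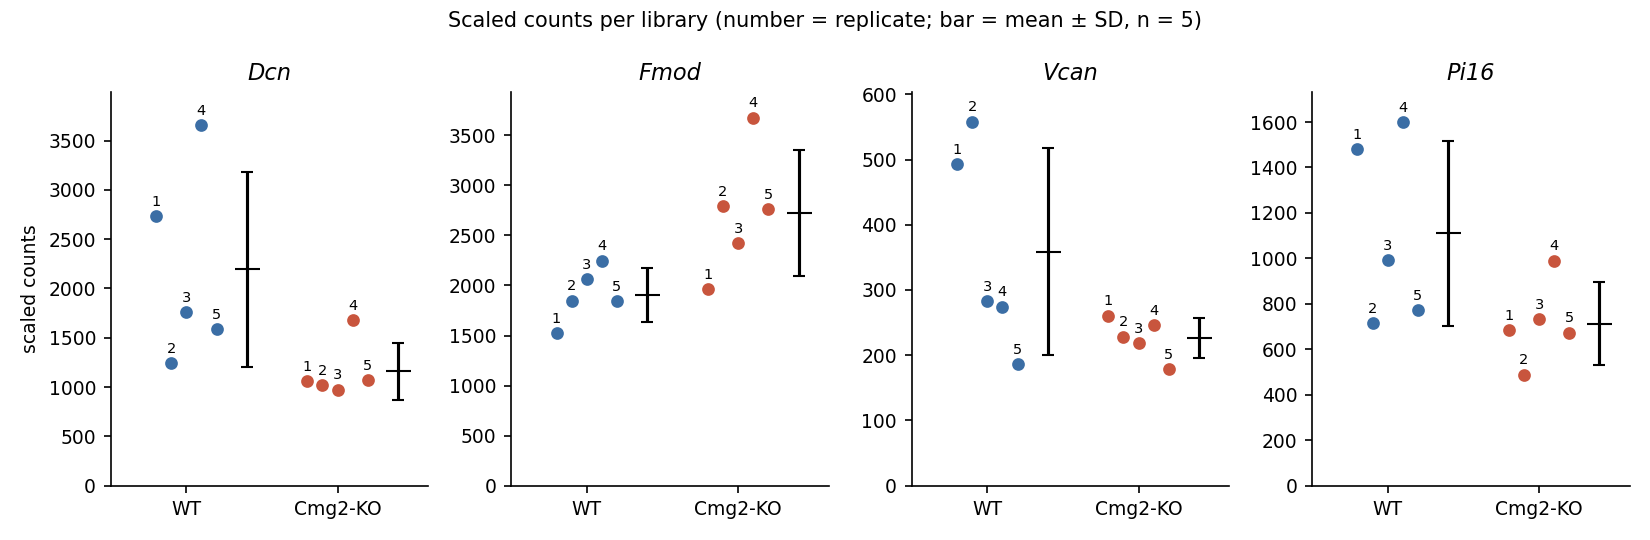
Scaled counts of Dcn, Fmod, Vcan and Pi16 (vertical axes from 0) in the 5 WT and 5 Cmg2-KO libraries, each point a library with its replicate number, and bars giving mean ± SD. WT 1 and WT 4 stand out for Dcn (2735 and 3658) and Pi16 (1480 and 1599), and 4 of the 5 Cmg2-KO libraries exceed every WT library for Fmod.

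The 4 genes entered the table with unadjusted p-values of 0.000497 (Dcn), 0.00119 (Fmod), 0.0123 (Vcan) and 0.00873 (Pi16), which rank them at places 106, 166, 533 and 429 of 1319 in the authors' deposited table. The adjusted p-values there were 0.0924, 0.143, 0.458 and 0.405. None of the 4 was under 0.05, which 5.46% of listed genes were. By limma, 0.229% of 1308 listed genes tested had an adjusted p under 0.05, and the 4 were not among them (adjusted p from 0.727 to 1). For 0 of the 4 were the libraries of the genotypes fully apart, as they were for 16.3% of listed genes. By limma's log2 fold change, 51.8% of the genes tested were lower and 48.2% higher in Cmg2-KO, so a direction by itself sets no gene apart. Of the 25 pairings of a Cmg2-KO with a WT library, the Cmg2-KO library was lower in 23 for Dcn, 22 for Pi16 and 21 for Vcan, and higher in 23 for Fmod.

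Counting error was small beside the spread between libraries. In the libraries where whole reads could be recovered, Dcn had 930 to 2693 reads, Fmod 1500 to 3887, Pi16 555 to 1457 and Vcan 172 to 538. Counting alone would give a coefficient of variation of 1.87% to 6.45% across these genes and genotypes. The observed coefficients were 45.0% (WT) and 25.3% (Cmg2-KO) for Dcn, 44.1% and 13.8% for Vcan, 36.6% and 25.3% for Pi16, and 14.3% and 23.1% for Fmod. The 3 genes with lower means in Cmg2-KO thus varied more among WT libraries, and Fmod more among Cmg2-KO libraries. These differences in spread were not tested.

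Levels of different genes can be set side by side only per length. Per kilobase of gene length, WT lung had 1179 ± 530 scaled counts of Dcn, 537 ± 76.6 of Fmod, 532 ± 195 of Pi16 and 31.1 ± 13.7 of Vcan (SD, n = 5). Fmod and Pi16 did not differ beyond their spread there. In Cmg2-KO the order was Fmod at 767 ± 177, Dcn at 622 ± 157, Pi16 at 341 ± 86.5 and Vcan at 19.6 ± 2.70 (SD, n = 5), with Fmod and Dcn differing by less than the SD of either.

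The ratio of 2 genes within a library does not depend on how the library was scaled. Per kilobase, Dcn over Fmod was 3.42, 1.28, 1.62, 3.10 and 1.64 in WT 1 to WT 5, and 1.02, 0.697, 0.765, 0.870 and 0.736 in Cmg2-KO 1 to 5. Every WT library had more decorin than fibromodulin transcript per length, 4 of 5 Cmg2-KO libraries had less, and the genotypes did not overlap. The log2 ratio differed by -1.34 between the genotypes, with -0.30 ± 0.22 in Cmg2-KO against 1.04 ± 0.63 in WT (SD, n = 5). Fmod over Pi16 was 0.607 to 1.53 in WT and 1.69 to 3.37 in Cmg2-KO, also without overlap. Fmod over Vcan did overlap, at 10.1 to 32.2 in WT and 24.5 to 50.3 in Cmg2-KO, with 4 of 5 Cmg2-KO libraries above every WT library. Dcn over Pi16, 2 genes with lower means, ran from 1.49 to 2.35 in Cmg2-KO and from 1.96 to 2.57 in WT. It overlapped too, with 4 of 5 Cmg2-KO libraries below every WT library. The genes were chosen for their opposite directions, so these ratios describe that choice and are not tested.

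**Figure D2:**
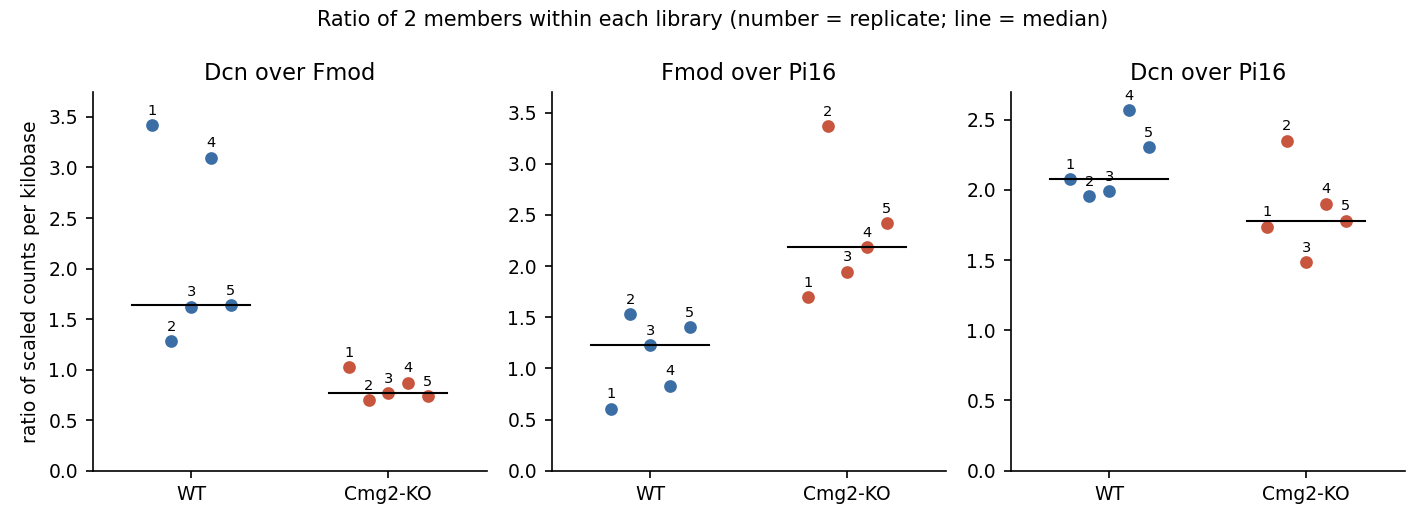
Ratio of scaled counts per kilobase (vertical axes from 0) for Dcn over Fmod, Fmod over Pi16 and Dcn over Pi16, each point a library with its replicate number and each line a genotype's median. The genotypes separate for Dcn over Fmod and for Fmod over Pi16, and overlap for Dcn over Pi16.

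How the 4 genes vary together within a genotype was not used to choose them. Log2 values were therefore compared after each genotype's mean was subtracted, over the 10 libraries and all 6 pairs. Dcn and Pi16 varied together, with Pearson's r of 0.91 (exact permutation of libraries within genotypes, 14400 arrangements, two-sided, p = 0.00181, adjusted p = 0.0108 over 6 pairs). Spearman's rho was 0.82 (exact permutation p = 0.0149, adjusted p = 0.0896), which did not pass 0.05 after adjustment. In WT all 10 pairs of libraries fell in the same order for both genes, and in Cmg2-KO 6 of 10 did. Without the libraries farthest from the median of Dcn, WT 4 and Cmg2-KO 4, r was 0.84 and rho 0.69. Leaving out each library in turn gave r between 0.88 and 0.96, with the adjusted exact permutation p at 0.121 without WT 2, 0.0875 without WT 3 and 0.05 without WT 5. Without both WT 1 and WT 4, r was 0.78 (exact permutation, adjusted p = 0.258).

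With all 10 libraries the other pairs showed no such relation, at a number of libraries that allows wide error. Dcn and Fmod had r of 0.37 and rho of 0.37 (exact permutation p = 0.239 and 0.288, adjusted p = 0.714 and 0.809), and r turned to -0.43 without WT 4 and Cmg2-KO 4. It was 0.62 without WT 1 (exact permutation, adjusted p = 0.0438). With WT 1 and WT 4 both left out it was 0.72, beside 0.78 for Dcn and Pi16 (exact permutation, adjusted p = 0.258 for each). Fmod and Vcan had r of -0.29 and rho of -0.30 (exact permutation p = 0.357 and 0.405, adjusted p = 0.714 and 0.809). Fmod and Pi16 had r of 0.22 and rho of 0.16 (exact permutation p = 0.516 and 0.664, adjusted p = 0.774 and 0.953). Vcan had r of -0.05 and rho of -0.03 with Dcn (exact permutation p = 0.927 and 0.953, adjusted p = 0.927 and 0.953), and r of 0.08 and rho of -0.04 with Pi16 (exact permutation p = 0.823 and 0.928, adjusted p = 0.927 and 0.953). Without the 2 libraries farthest from the median of the gene named first, r was -0.46 for Fmod with Vcan, -0.05 for Fmod with Pi16, 0.10 for Dcn with Vcan and 0.24 for Vcan with Pi16.

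**Figure D3:**
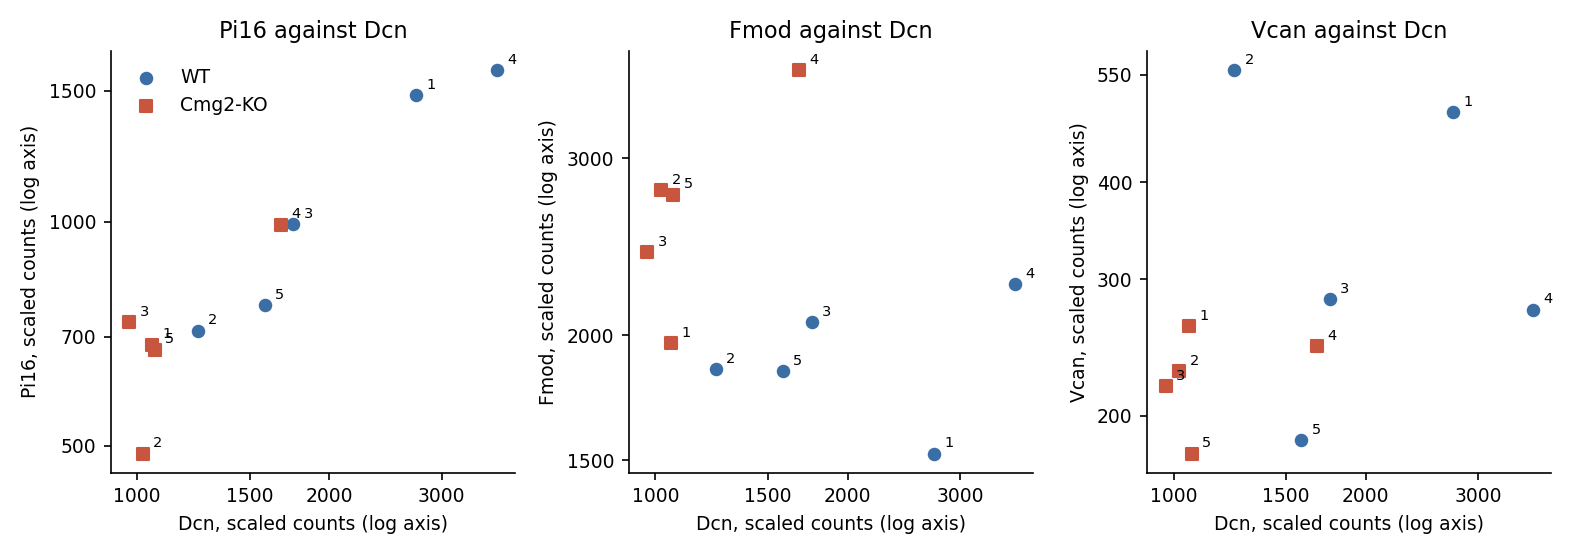
Pi16, Fmod and Vcan plotted against Dcn in scaled counts on log axes, circles for WT and squares for Cmg2-KO libraries, with replicate numbers. The Pi16 points rise with Dcn (r = 0.91 within genotypes, exact permutation p = 0.00181), while the Fmod points form a separate band for each genotype and the Vcan points have no shared order with Dcn.

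Part of the size of the Dcn and Pi16 differences came from WT 1 and WT 4. Without both, an alternative picked once the values were known, the WT mean of Dcn was 1528 ± 261 (SD, n = 3) and its log2 fold change -0.42 in place of -0.84. For Pi16 the WT mean was 826 ± 146 (SD, n = 3) and the log2 fold change -0.23 in place of -0.60. Vcan, which was high in WT 1 and WT 2, kept -0.46 of -0.56. Fmod was at 0.48 against 0.50 with all libraries. For Fmod, WT 1 was the lowest and WT 4 the highest WT library, so leaving out both moves the WT mean little. Its log2 fold change was 0.42 without WT 1 alone, 0.56 without WT 4 alone and 0.38 without Cmg2-KO 4 alone.

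**Figure D4:**
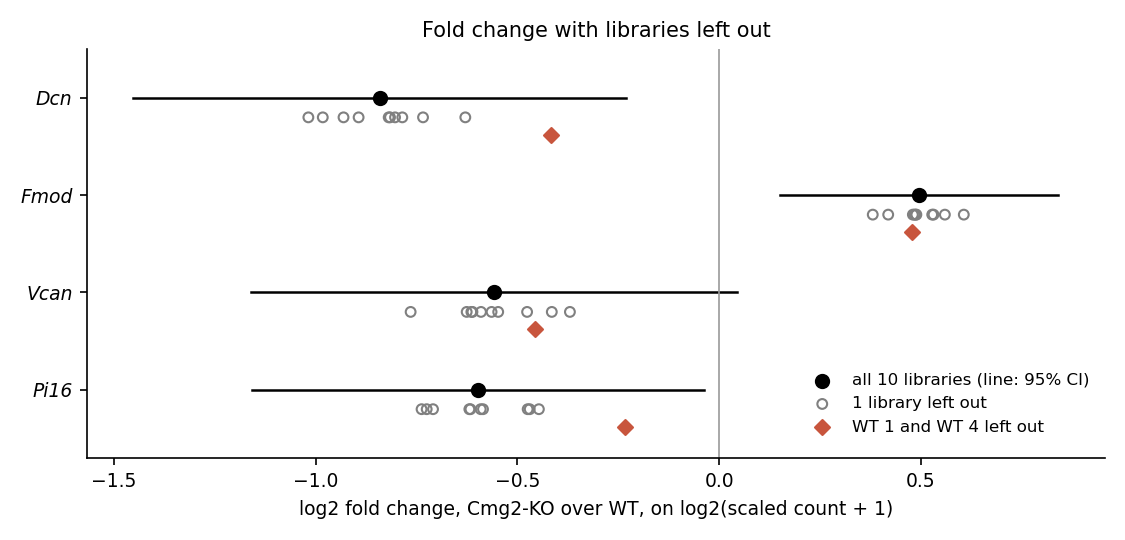
Log2 fold change (Cmg2-KO over WT, on log2(scaled count + 1)) of each gene with all 10 libraries (filled circle, line for the 95% confidence interval), with each library left out in turn (open circles) and without WT 1 and WT 4 (diamonds). The diamonds move to -0.42 for Dcn and -0.23 for Pi16, and to 0.48 for Fmod.

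The listed genes most like each of the 4 were found by the correlation of log2 values with genotype means subtracted, over 10 libraries and 1006 genes with a settled symbol. These values are a description without a test, and the libraries they share make high values common. Over the 1308 genes tested, 5% of values lay above 0.71 for Dcn, 0.57 for Fmod, 0.57 for Vcan and 0.75 for Pi16. For Dcn the most alike was Pi16 (0.91), followed by Tram1, part of the protein translocation machinery of the endoplasmic reticulum (0.89), the secreted ligand gene Wnt9b (0.89) and the small GTPase gene Rab36 (0.87). For Pi16 the most alike were the kinase gene Dclk3 (0.95), the carboxylesterase gene Ces1f (0.94), the cilium-associated gene Erich3 (0.92) and Lrrc51 (0.92), and Dcn came only at place 8.

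These companions did not all share the direction between genotypes. Wnt9b had 51.3 ± 30.7 (WT) and 24.6 ± 8.11 (Cmg2-KO) scaled counts, and Ces1f 142 ± 45.3 and 91.4 ± 23.2 (SD, n = 5), lower like Dcn and Pi16. Dclk3 stood at 124 ± 34.7 and 179 ± 39.0 (SD, n = 5), higher in Cmg2-KO, although within each genotype it ran with Pi16. Fmod was most like the peroxisomal enzyme gene Pecr (0.85), the transcription factor gene Rfx4 (0.83), the neurotrophin gene Ntf3 (0.82) and Ckap4 (0.82), of which Ckap4 had a higher mean in Cmg2-KO and the other 3 a lower one. Vcan was most like Tmed4 (0.80), Gprc5d (0.78), Siglec5 (0.78) and S100b (0.78), the last an S100 calcium-binding protein with a higher mean in Cmg2-KO.

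Few other genes of the proteoglycan pathways were listed, as few genes of any kind were (6.63%). Of 17 small leucine-rich proteoglycan genes, only Dcn and Fmod were listed (11.8%). Of 26 genes of hyaluronan-binding proteoglycans and hyaluronan handling, only Vcan was (3.85%). Dcn, Fmod and Vcan were picked from the listed genes, so these shares were set by that choice and are no result about the lists. Of 39 genes that build and sulfate glycosaminoglycan chains, 2 were listed (5.13%), both with lower means. Csgalnact1, the enzyme that begins chondroitin sulfate chain growth, stood at 396, 445, 457, 505 and 652 scaled counts in WT 1 to WT 5 and at 315, 369, 338, 260 and 361 in Cmg2-KO 1 to 5. Every Cmg2-KO library was below every WT library, and the genotypes were fully apart for 16.3% of listed genes. Its log2 fold change was -0.57 ± 0.14 (SE by limma, adjusted p = 0.591). The authors' deposited table gives it an adjusted p of 0.0347, the only value under 0.05 for these lists. Within genotypes Csgalnact1 ran opposite to Vcan (r = -0.76 over 10 libraries, a description without a test), although both had lower means in Cmg2-KO. Slc26a2, a sulfate transporter that feeds chain sulfation, stood at 249 ± 14.1 and 206 ± 23.5 (SD, n = 5).

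Proteases and inhibitors of proteoglycan turnover had 3 of 19 genes listed (15.8%), with 2 higher and 1 lower. Timp1, an inhibitor of matrix metalloproteinases, averaged 1091 ± 169 scaled counts in Cmg2-KO against 804 ± 130 in WT (SD, n = 5), with 3 Cmg2-KO libraries above every WT library. Adamts9, a protease that cleaves versican, stood at 813 ± 131 and 1372 ± 665 (SD, n = 5), from 545 in Cmg2-KO 3 to 2068 in Cmg2-KO 5. Tll1, a tolloid-like protease, stood at 217 ± 26.5 and 165 ± 41.5 (SD, n = 5). Neither limma nor the authors' deposited table gave any of them an adjusted p under 0.05.

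Other proteoglycans went both ways, with 4 of 29 listed (13.8%), 2 higher and 2 lower. The glypican genes, which encode membrane-anchored heparan sulfate proteoglycans, had opposite directions. Gpc3 stood at 5339 ± 401 and 6384 ± 634 scaled counts and Gpc6 at 34.7 ± 11.3 and 15.9 ± 6.16, WT given before Cmg2-KO (SD, n = 5). Smoc2, a matricellular protein gene, stood at 461 ± 35.7 and 547 ± 41.5 (SD, n = 5). Its genotypes were fully apart, at 399 to 490 in WT and 508 to 613 in Cmg2-KO, as were those of 16.3% of listed genes. Srgn, the granule proteoglycan of blood cells, stood at 5183 ± 1037 and 4311 ± 431 (SD, n = 5). No adjusted p for these 4, by limma or as deposited in the authors' table, was under 0.05.

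The TGF-beta pathway, whose ligand decorin can bind, had 4 of 23 genes listed (17.4%, against 6.63% of all genes), all with higher means. These 4 entered through this same contrast, as all genes tested did. Their median log2 fold change of 0.26, against -0.15 over all genes tested, thus restates their direction, and a shift of the pathway was not tested. The receptor gene Tgfbr1 averaged 1576 ± 168 scaled counts in Cmg2-KO against 1307 ± 133 in WT (SD, n = 5). The signal transducer Smad2 stood at 927 ± 60.7 and 1031 ± 36.0, the latent binding protein gene Ltbp1 at 2238 ± 177 and 2688 ± 412, and the activator gene Thbs1 at 935 ± 268 and 1325 ± 487 (SD, n = 5). Neither limma nor the authors' deposited table gave any of them an adjusted p under 0.05. Within genotypes the 4 genes differed in their likeness to Dcn, from -0.14 (Ltbp1) to 0.78 (Thbs1), and to Pi16, from -0.28 (Ltbp1) to 0.84 (Tgfbr1), values given without a test.

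**Figure D5:**
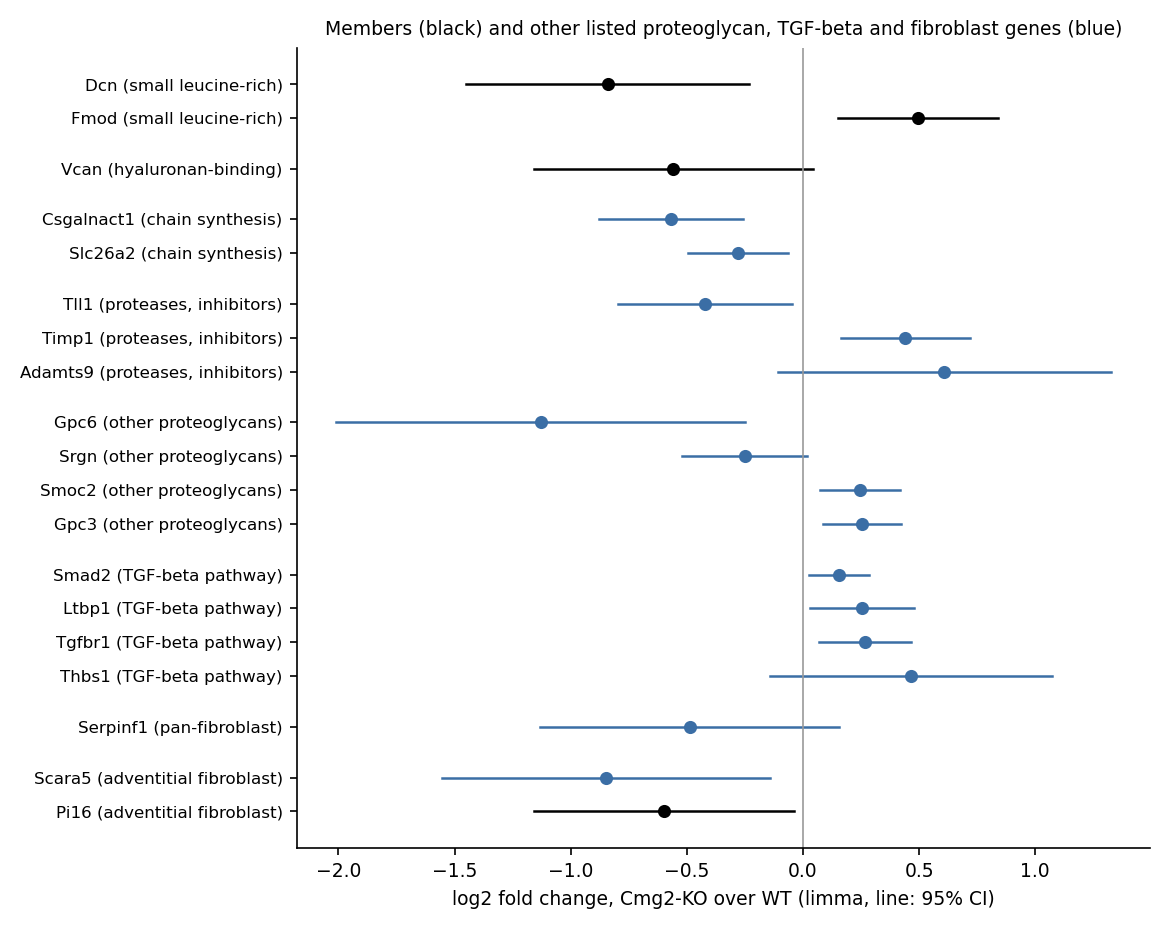
Log2 fold change (Cmg2-KO over WT, limma) with 95% confidence interval of the 4 genes (black) and the other listed genes of the proteoglycan, TGF-beta and fibroblast lists (blue), grouped by list. By point estimate, Dcn, Vcan and Pi16 lie below 0 with Csgalnact1, Slc26a2, Tll1, Gpc6, Srgn, Serpinf1 and Scara5. Fmod lies above 0 with Timp1, Adamts9, Gpc3, Smoc2 and the 4 TGF-beta genes. The intervals of Vcan, Adamts9, Srgn, Thbs1 and Serpinf1 include 0.

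Markers of fibroblasts were mostly not listed, as held for genes of any kind (6.63% of all genes were listed). Of 20 pan-fibroblast genes, Dcn and Serpinf1, the gene for pigment epithelium-derived factor, were listed (10%). Serpinf1 averaged 326 ± 125 (WT) and 223 ± 57.4 (Cmg2-KO) scaled counts (SD, n = 5). Of 23 adventitial fibroblast genes, Pi16 and the ferritin receptor gene Scara5 were listed (8.70%). Scara5 stood at 584, 355, 226, 656 and 460 in WT 1 to WT 5 and at 200, 191, 174, 435 and 256 in Cmg2-KO 1 to 5, with WT 1, WT 4 and Cmg2-KO 4 highest in their genotypes as for Dcn and Pi16. None of the fibrillar collagen genes of the pan-fibroblast list was a listed gene. Of 17 alveolar fibroblast and lipofibroblast genes only G0s2 was listed (5.88%), at 1218 ± 361 and 1652 ± 167 (SD, n = 5). Of 23 tendon and cartilage genes (8.70% listed), a group that includes Fmod, only Col11a1 was listed besides. Dcn, Pi16 and Fmod were picked from the listed genes, which raises the shares of their lists.

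Airway secretory markers had positive likeness to Dcn and Pi16 within genotypes, not all of it beyond that of other genes, and not every one was high in WT 4. Of 8 airway secretory genes 4 were listed (50%, against 6.63% of all genes), all with lower means, and their summed level ran from 144340 to 196851 scaled counts in the WT libraries against 84396 to 176966 in Cmg2-KO. The club cell enzyme gene Cyp2f4 stood at 1223 in WT 1 and 874 in WT 4 against 336 to 767 in the other WT libraries, and at 859 in Cmg2-KO 4 while the remaining Cmg2-KO libraries had 120 to 260. Within genotypes the likeness of the 4 genes to Dcn ran from 0.51 to 0.77, and that to Pi16 from 0.63 (Scgb1a1) to 0.87 (Bpifb1). Of all genes tested, 5% lay above 0.71 for Dcn and 0.75 for Pi16. Bpifb1 and Cyp2f4 were above both values, and Agr2 and Scgb1a1 below both. Scgb1a1, which makes up most of the sum, was high in WT 1 (195238) but not in WT 4 (145849), where the lowest WT library had 143906. Of 17 myofibroblast and smooth muscle genes 8 were listed (47.1%), all with lower means, and their sum ran from 29743 to 49069 in the WT libraries against 24491 to 36826 in Cmg2-KO. The likeness of these smooth muscle genes to Dcn ran from 0.37 to 0.69, below that 0.71. Sftpb of alveolar epithelium, the only listed gene of 12 on its list, ran opposite to Dcn within genotypes (-0.77), as did the endothelial receptor gene Tie1 (-0.75), also 1 of 12. The part of these tissues in the Dcn and Pi16 differences was not tested.

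Markers of the pleural lining had higher means in Cmg2-KO, as Fmod did. Of 12 mesothelial genes 7 were listed (58.3%, against 6.63% of all genes), all with higher means, and their sum ran from 3682 to 6616 scaled counts in the WT libraries against 4550 to 7839 in Cmg2-KO. Within genotypes their likeness to Fmod ran from 0.24 (Rspo1) to 0.72 for mesothelin (Msln), where 5% of all genes tested lay above 0.57. Msln and Upk3b (0.64) were above that value, and the other listed mesothelial genes lay at 0.40 (Upk1b) or lower. In Cmg2-KO 1, where Fmod lay at WT level, Msln at 1316 and Upk3b at 574 lay at WT level as well. B and plasma cell genes had 2 of 8 listed (25%), both higher, and Mzb1 had a likeness of 0.72 to Fmod. Jchain had 0.53 to Fmod, and more to Dcn (0.75) and Pi16 (0.79). None of the 12 macrophage and monocyte markers was listed. The part of these cells in the Fmod difference was not tested, and no listed mesothelial, airway, smooth muscle or B cell marker was at 0 in any library.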

How the data were processed

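RNA was extracted with Trizol from frozen lungs and made into libraries with a NEBNext Ultra kit, per the labels' protocols. HISAT2 2.0.5 and featureCounts 1.5.0-p3 are named, per the submitters' processing notes. The sources used here do not give the build, annotation, strand setting or the authors' test. Each deposited library value is a signal that the authors obtained by dividing read counts by a size factor. All values were whole multiples of what 1 read is worth, 0.869 to 1.11 scaled counts, within 0.02 reads. The deposited table also gives the authors' log2 fold change, fold (ratio), p-value and adjusted p-value, and, among other columns per the file headers, gene length. Adjusting with Benjamini-Hochberg over 19894 genes gives the deposited adjusted values to within 2% except at 17 genes. Listed genes held 1386578 to 1531531 scaled counts per library, and total depth is unknown. No libraries of a genotype agreed within sampling noise.

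Limma 3.58.1 (trend, robust) in R 4.3.3 was fitted to log2(scaled count + 1) of the 1308 genes above 0.5 in at least 5 libraries, adjusting over 19894 genes. It was tested on simulated data. The moderated variances come from genes selected for this contrast. edgeR 4.0.16 and DESeq2 1.42.0 used whole reads of 9 libraries (WT 4, whose reads are worth nearly 1 scaled count, was left out) with the authors' size factors. Members and gene lists were chosen with earlier results of these data known. Named genes were the 4 members, up to 4 listed genes per list by absolute fold change, and the 4 genes most like each member. Cyp2f4 and the other markers given by likeness were picked within their lists after their values were seen. Reads of overlapping genes may be counted together.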

Additional observations from a re-analysis of the deposited data

Results flagged for a closer look

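A library counted as far from its genotype when the gap of its log2 value to the nearest of the other 4 exceeded 0.71 of the range over all 5 (Dixon's criterion). Of 104 groups of 5 libraries, from 52 named genes, 8 met this, where chance at 1 in 20 gives 5.2. Among the 4 genes described here this was so for Dcn in Cmg2-KO 4, at 1678 scaled counts where Cmg2-KO otherwise ran from 971 to 1067 and WT from 1244 to 3658. Without Cmg2-KO 4 the log2 fold change of Dcn was -0.98.

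Among the related genes, Gpc6 stood at 5.22 in Cmg2-KO 3 against 16.5 to 20.2 in the others. WT 2 was apart for Srgn, at 6996 against 4405 to 4942, and for Smoc2, at 399 against 467 to 490. Cmg2-KO 1 was apart for Upk3b, at 574 against 907 to 1029, and for Wt1, at 77.3 against 119 to 140. Scgb1a1 stood at 195238 in WT 1 against 143906 to 152709, and Ckap4 at 1204 in WT 4 against 1002 to 1048.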

How the results depend on the processing

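The log2 fold changes of Dcn, Fmod, Vcan and Pi16 kept their direction under all 22 alternatives to each. The genes were chosen on this contrast, and some alternatives cannot move a fold change: other filters, limma without trend or robust, and the replicate block. Without both WT 1 and WT 4, Dcn moved to -0.42 and Pi16 to -0.23. Leaving out each library gave -1.02 to -0.63 for Dcn, 0.38 to 0.61 for Fmod, -0.76 to -0.37 for Vcan and -0.74 to -0.45 for Pi16, and -1.51 to -1.15 for the log2 difference in Dcn over Fmod. On whole reads of 9 libraries edgeR gave -0.66, 0.58, -0.75 and -0.47. Fitting the replicate number as a block cannot change the fold changes, since each number occurs once per genotype (-0.84 for Dcn in both fits). It changed the SE, from 0.28 to 0.16 for Dcn, 0.16 to 0.08 for Fmod, 0.27 to 0.20 for Vcan and 0.25 to 0.13 for Pi16. Over all genes tested it gave fewer unadjusted limma p-values under 0.05, 899 against 1035 without it. The number of genes with an adjusted limma p under 0.05, 3 in all libraries, was 1 to 6 with a library left out, 5 after quantile normalization, 257 with adjustment over the listed genes alone, and 0 with the replicate block (899 at an unadjusted p under 0.05). It was 1 with edgeR and 49 with DESeq2. Replicate numbers share nothing in the labels, deviations of same-numbered libraries correlated at -0.02 to 0.09, and 5 of 10 libraries were most like their own number. With a library left out, r within genotypes ran from 0.88 to 0.96 for Dcn with Pi16, 0.12 to 0.62 for Dcn with Fmod, -0.34 to 0.46 for Dcn with Vcan, -0.48 to -0.10 for Fmod with Vcan, -0.11 to 0.51 for Fmod with Pi16 and -0.26 to 0.55 for Vcan with Pi16. Without both WT 1 and WT 4, added after seeing the data, r was 0.78 for Dcn with Pi16, 0.72 for Dcn with Fmod and -0.083 for Vcan with Pi16. Fewer libraries give fewer arrangements, and the cause of the other shifts was not tested. The 16 other named genes recomputed, also listed on this contrast, kept their direction in all alternatives, including those that cannot move a fold change.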

Other observations

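Near Vcan, a single gene of the 4 on either side in RefSeq's GRCr8 order was listed. Tmem167a, which lies 2 genes away and encodes a small membrane protein, stood at 237, 204, 261, 246 and 367 scaled counts in WT 1 to WT 5 and at 368, 340, 355, 371 and 312 in Cmg2-KO 1 to 5. Its mean was higher in Cmg2-KO while that of Vcan was lower, and WT 5, the lowest WT library for Vcan, was the highest for Tmem167a.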
